A study of Mus musculus with 2 samples.

Results

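The 7 genes described here encode parts of the interleukin-6 (IL-6) receptor system: the receptor chains Il6st (gp130), Il6ra, Lifr and Osmr, the kinase gene Jak1, the transcription factor gene Stat3 and the inhibitor gene Socs3. A Lef1 peak was counted for a gene when any base of it lay inside the gene body or within 50 kb of it on the mm10 genome. By this rule 7 of the 2052 peaks of the deposited wild-type list belonged to the 7 genes, 4 of them to Il6st, 2 to Jak1 and 1 to Il6ra. Lifr, Osmr, Stat3 and Socs3 had none. The genes were chosen by what is known of the pathway and by earlier results on these same peaks, and the peaks by their deposited positions, so the counts and scores are given as a description, without a test.

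The peaks came from chromatin immunoprecipitation followed by sequencing (ChIP-seq) with the anti-Lef1 antibody C18A7. Conventional CD4+ T cells (TCRb+, CD4+, CD25-, sorted as GFP-negative) came from spleens of C57BL/6 mice of wild-type genotype, aged 8 to 10 weeks. The background of the peak calls was a library made with the same antibody from Lef1-deficient CD4+ T cells (TCRb+, CD4+, C57BL/6) of CD4-Cre+ Lef1 fl/fl mice, in which the Cre recombinase acts in cells that have expressed CD4. The sorts thus differed as well as the genotypes, since no CD25 or GFP gate was given for the Lef1-deficient cells. Their parts in the scores cannot be told apart. There was 1 library per genotype. The age of the Lef1-deficient mice, the number of mice per library and the reporter behind the GFP gate were not given in the sources used here, and the tissue label of both libraries reads naive CD4 T cells. Since a peak does not measure expression, the cell type label could not be checked by markers. Of 7 CD4 T cell markers, Cd28 and Lck had a peak within 50 kb and Cd3e, Cd3d, Cd3g, Cd4 and Thy1 had none. Among markers of other cells, the 3 B cell markers, both CD8 markers and the 4 myeloid markers looked at had none within 50 kb. Of all protein-coding genes 15.5% had one, and nothing is read from marker counts as small as these.

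IL-6 binds its receptor chain Il6ra, and the complex then recruits gp130, the product of Il6st, which also carries the signal of other cytokines of the family. Lifr and Osmr pair with gp130 in the receptors of leukaemia inhibitory factor and oncostatin M. Janus kinases bound to gp130, Jak1 foremost, phosphorylate it and the transcription factor Stat3, which enters the nucleus and switches on genes that include Socs3, whose product in turn binds gp130 and Jak1 and shuts the signal off. In CD4 T cells this pathway is known for its part in the formation of follicular helper and Th17 cells, and the level of its receptors sets how strongly a naive cell answers IL-6. Lef1 and its relative Tcf1 are DNA-binding proteins that recognise words built around CTTTG.

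None of the 7 peaks touched a promoter, but most peaks of the list did not either, so this count says little. Each peak lay between 36.3 and 89.8 kb from the start of its gene, and none overlapped a RefSeq promoter window of any gene (250 bases before to 50 after a start), as 258 peaks of the list did (12.6%). None lay within 1 kb of an end of a protein-coding gene. The share of the whole list that did is not given here, so nothing is read from that count. The bases of the peaks themselves are not shown, since no genome sequence was used here. The 250 bases before the annotated start are printed for the 3 genes with a distal peak and for the 2 genes without a peak whose window holds a TCF/LEF word, from RefSeq (GRCm38.p6, the assembly that mm10 denotes), 5′ to 3′ on the strand of the gene. Capitals mark CTTTGA or CTTTGT and the STAT word TTCNNNGAA, on either strand.
Il6st (chr13:112463820-112464069, + strand): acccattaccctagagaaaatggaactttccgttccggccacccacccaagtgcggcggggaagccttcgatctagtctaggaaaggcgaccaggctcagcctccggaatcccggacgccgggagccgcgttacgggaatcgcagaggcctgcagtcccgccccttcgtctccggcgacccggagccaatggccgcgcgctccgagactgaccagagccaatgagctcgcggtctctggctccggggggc
Il6ra (chr3:89913197-89913446, - strand): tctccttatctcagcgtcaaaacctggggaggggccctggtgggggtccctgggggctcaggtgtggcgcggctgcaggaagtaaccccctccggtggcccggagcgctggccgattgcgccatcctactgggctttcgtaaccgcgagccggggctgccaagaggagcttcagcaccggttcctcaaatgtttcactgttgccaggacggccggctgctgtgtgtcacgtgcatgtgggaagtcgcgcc
Jak1 (chr4:101265224-101265473, - strand): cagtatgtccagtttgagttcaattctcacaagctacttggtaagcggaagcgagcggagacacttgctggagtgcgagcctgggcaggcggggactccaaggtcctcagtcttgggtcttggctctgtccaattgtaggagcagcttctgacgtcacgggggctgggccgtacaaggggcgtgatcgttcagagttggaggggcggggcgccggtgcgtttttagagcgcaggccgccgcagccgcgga
Stat3 (chr11:100939541-100939790, - strand): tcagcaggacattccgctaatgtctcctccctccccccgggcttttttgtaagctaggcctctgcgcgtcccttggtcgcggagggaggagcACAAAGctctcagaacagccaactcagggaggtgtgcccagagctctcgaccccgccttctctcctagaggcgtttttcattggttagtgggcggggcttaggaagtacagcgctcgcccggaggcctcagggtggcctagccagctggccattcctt
Socs3 (chr11:117969367-117969616, - strand): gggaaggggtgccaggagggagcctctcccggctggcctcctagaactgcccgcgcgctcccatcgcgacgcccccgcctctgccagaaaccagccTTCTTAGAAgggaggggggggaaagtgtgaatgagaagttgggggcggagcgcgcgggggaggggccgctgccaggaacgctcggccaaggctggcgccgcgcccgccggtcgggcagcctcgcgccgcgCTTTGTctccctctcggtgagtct

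The windows of Il6st, Il6ra and Jak1 held neither word. Those of Stat3 and Socs3 each held a TCF/LEF word, beginning at position -158 in Stat3, where it reads ACAAAG, and at -24 in Socs3, counted back from the base before the start. The Socs3 window also held a STAT word, beginning at -154, which shares no base with its TCF/LEF word. The Socs3 window lies before an annotated start inside the gene body, whose 5′ end is at 117970336. Its words are therefore not upstream of the body. All 7 genes matched the table, with 8 windows in all, 2 of them for Lifr. The remaining windows, those of Lifr and Osmr, held neither word. Of all 32851 windows of this length, 27.6% held CTTTGA or CTTTGT and 7.02% held TTCNNNGAA. A match is a stretch of letters and not a bound site, and the list had no peak at any of these windows.

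Il6st had the most peaks of the 7 genes and the highest score among them. Scores here are −log10 p as the authors' peak caller gave it. They grade the significance of the excess of reads over the control in these libraries, not its size. The 4 peaks lay on chromosome 13 between 112424758 and 112427814, a stretch of 3.06 kb upstream of the gene, which runs on the + strand from 112464070 to 112506860. The outermost, 112424758 to 112425090, was 333 bp wide, scored 6.92 and lay 39.0 kb before the gene. After a gap of 2.35 kb came 3 narrow peaks within 374 bp. They were 112427441 to 112427544 (104 bp, score 4.31), 112427604 to 112427673 (70 bp, score 8.72) and 112427760 to 112427814 (55 bp, score 4.20), separated by 59 and 86 bp. The highest of them was also the highest at any of the 7 genes: 60 of the 2052 peaks scored higher, and 167 scored higher than the 333 bp peak. The other 2 were among the lower-scoring peaks of the list, with 1550 and 1800 peaks above them. The width of 55 bp was the smallest in the list, found for 110 peaks. The highest-scoring peak, of 70 bp, was narrower than the median of 213 bp over the 97 peaks of the list scoring at least 8.

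**Figure D1:**
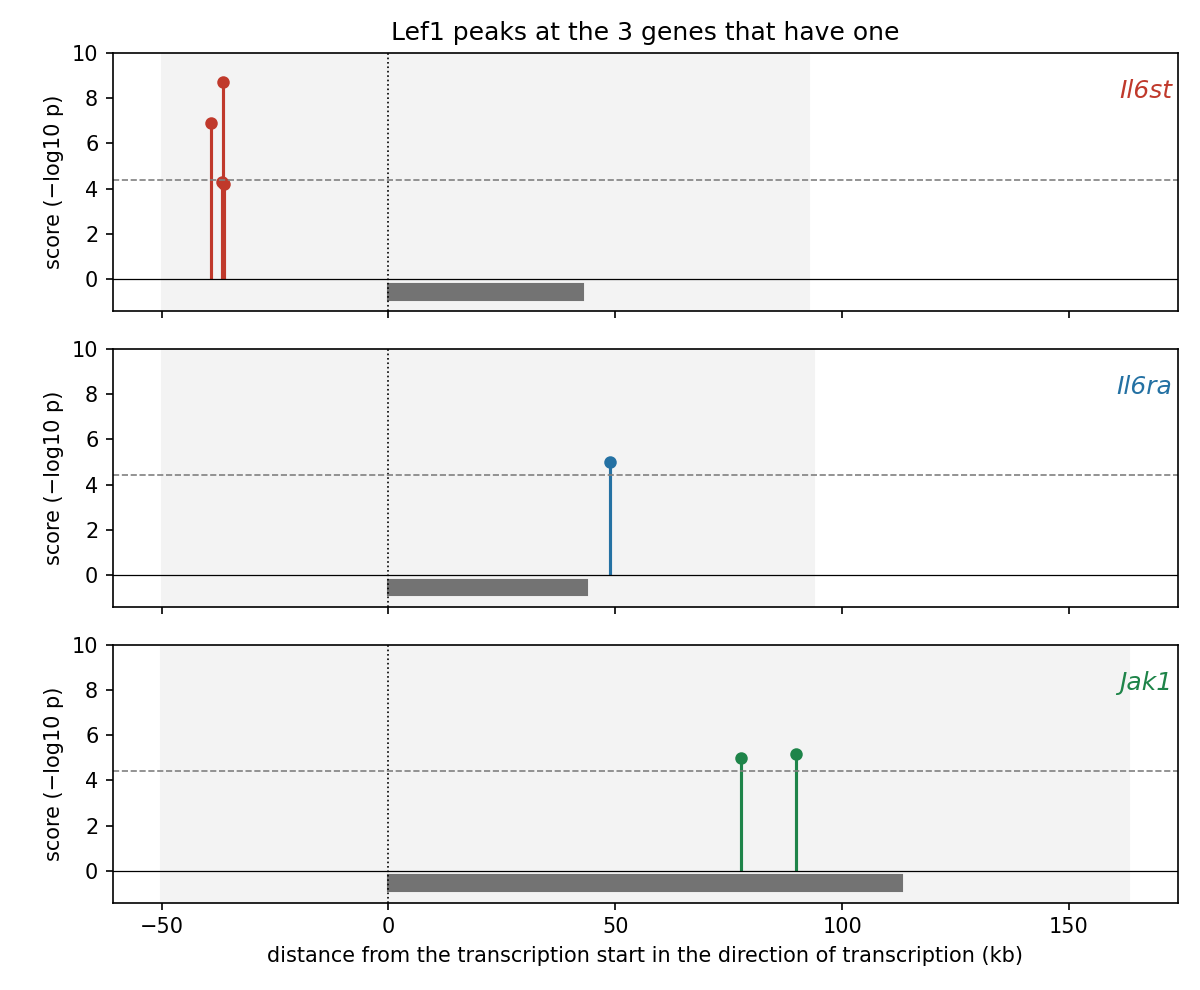
Lef1 peaks along Il6st, Il6ra and Jak1. The x axis is the distance in kb from the annotated start in the direction of transcription, the y axis is the deposited score (−log10 p), each stem is 1 peak placed at its centre, grey bars are gene bodies, pale shading is the body with 50 kb on either side, and the dashed line is the median score of the list (4.40). The 4 Il6st peaks sit 36.3 to 39.1 kb before the start, the Il6ra peak just beyond the far end of the gene, and both Jak1 peaks in the body, 77.6 and 89.8 kb after the start.

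Neighbours that close can be parts of a single site. With peaks up to 1 kb apart joined, Il6st had 2 sites, and with peaks up to 5 kb apart joined it had 1. Groups of this kind were few: when peaks within 1 kb were joined, 3 groups in the whole list held 3 or more peaks, the one at Il6st among them, and when peaks within 5 kb were joined, 3 groups held 4 or more. The list had no other peak nearby. The next one before the stretch was 2.38 Mb away and the next one after it 1.30 Mb away, where the median gap between neighbouring listed peaks was 617 kb, and 15.1% and 29.7% of all gaps were longer than these.

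The deposited peak names carry numbers that rise along each chromosome, from 26 to 33876 over the 2052 listed peaks, so most calls of the numbered set are not in the list. The 4 peaks at Il6st bore the consecutive numbers 9170 to 9173. Every numbered call in that stretch was therefore listed, whereas 25 numbers on the low side and 19 on the high side, up to the next listed peaks, were not. Runs of at least 4 consecutive numbers occurred 8 times in the list, and 2 of them, this one included, fitted into 5 kb.

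Il6st was the nearest protein-coding gene to all 4 peaks, but not the only gene within 50 kb. Ankrd55, which encodes an ankyrin repeat protein, ended 40.8 to 43.8 kb away on the other side, and the same 4 peaks therefore count for it too. Nearer still was the non-coding RNA gene Gm33905, whose body lay 1.74 to 4.74 kb from the peaks. Il31ra, the receptor chain gene that follows Il6st, had no peak within 50 kb. Which gene a distal site acts on was not measured in these data.

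Among all 21887 protein-coding genes, 28 (0.128%) had at least 4 peaks within 50 kb. In Il6st and Ankrd55, which share their peaks, the peaks lay in the shortest stretch of these 28 genes, followed by LOC665918 (4.42 kb) and by Tmem267 and Ccl28, which also share theirs (18.0 kb). At the other end, the 4 peaks of Pcca spread over 339 kb. A score of at least 8.72 within 50 kb was found for 133 genes (0.608%). These counts are of unjoined peaks, and the 4 at Il6st made 2 sites when peaks up to 1 kb apart were joined. The share of genes with as many joined sites is not given here. Because the genes were chosen with the peaks known, nothing is read from these shares or from the short stretch.

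Il6ra, the chain that binds IL-6 itself, had a single peak of 69 bp with a score of 4.99 (chromosome 3, 89864262 to 89864330). The gene lies on the − strand from 89869324 to 89913196, so the peak was 4.99 kb beyond its 3′ end and 48.9 kb from its start. It stood almost midway between 2 genes that point at each other, since the 3′ end of She, which encodes an SH2 domain adaptor, was 5.42 kb away on the far side. In the list 461 peaks scored higher, and 75, this one included, had exactly this score. The nearest listed peaks were 565 kb before it and 429 kb after it.

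Jak1, the kinase of the group, had 2 peaks and was the one gene of the 7 with peaks inside its body. The gene is on the − strand of chromosome 4, from 101151974 to 101265282. One peak, 101187336 to 101187816, was 481 bp wide and lay 77.6 kb after the start. Only 10 peaks of the list were wider, yet its score was 4.99, the same value as at Il6ra. It began 469 bp from the small nuclear RNA gene Gm24468, which lies within Jak1. The other, 101175376 to 101175545, was 170 bp wide with a score of 5.16 and lay 89.8 kb after the start. The peaks were 11.8 kb apart with consecutive numbers, 22247 and 22248, so no unlisted call lay between them. Whether they fall in exons or introns was not determined, since the gene table used here holds no exons.

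**Figure D2:**
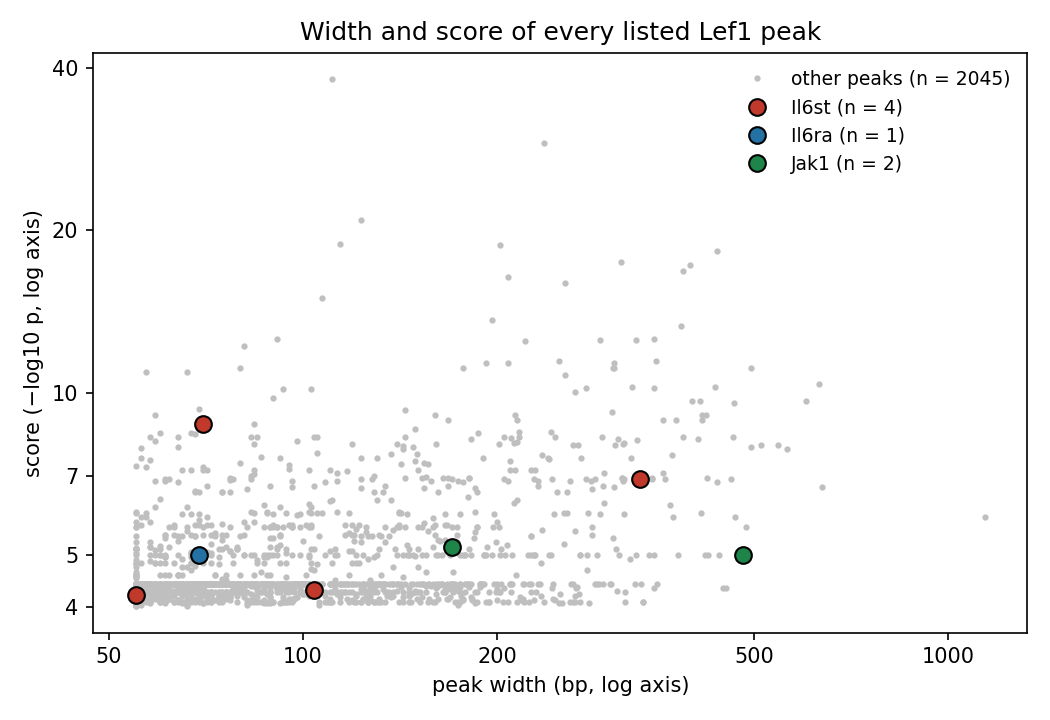
Width (x axis, bp, log axis) against deposited score (y axis, −log10 p, log axis) of all 2052 Lef1 peaks, with 1 point per peak and the 7 peaks at Il6st, Il6ra and Jak1 in colour. The peaks of Il6st spread from a score of 4.20 to 8.72, while those of Il6ra and Jak1 lie between 4.99 and 5.16 at widths of 69 to 481 bp.

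Among the 7 peaks the highest score belonged to a peak of 70 bp and the largest width to one with a score of 4.99. The scores had a median of 4.99, and 5 of the 7 were above the list's median of 4.40, as were 30.6% of all peaks. The widths ran from 55 to 481 bp with a median of 104 bp, against 79 bp in the list, and 4 of the 7 were wider than that. Ordered by highest score, Il6st (8.72) came before Jak1 (5.16) and Il6ra (4.99). The last of these values differ little, and with 1 library there is no replicate error to set them against.

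With 3 of 7 members having a peak, the share among all protein-coding genes under the same rule was 15.5% (3384 of 21887). At least 2 peaks, as at Il6st and Jak1, were found for 2.61% of genes. Because the genes were chosen with the peaks known, nothing is read from this difference. Long genes have wider windows, and among genes with a body of 40 to 120 kb, which 6 of the 7 have, the share was 19%. Among genes with bodies no shorter and no longer than those of the 7 it was 16.8%, and among autosomal genes 16.3%. Socs3 is the exception, with a body of 4.26 kb against 42.8 to 113 kb for the rest.

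Narrower and wider windows changed which of the 7 genes had a peak. Inside the body alone it was Jak1, where 4.51% of all genes had one. Within 10 kb it was Jak1 and Il6ra, where 7.33% had one. Within 100 kb Stat3, Lifr and Socs3 joined Il6st, Il6ra and Jak1, and 24.6% of all genes had a peak. The same 3 genes as within 50 kb remained when only peaks above the median score were counted, by which 5.84% of all genes had a peak, and Il6st alone remained with peaks scoring at least 8, by which 0.932% did.

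The 4 genes without a peak differed in how far the nearest one lay. For Stat3 (chromosome 11, 100886806 to 100939594) it was 62.6 kb away, the closest of those beyond the limit of 50 kb, where the farthest peak within it was the one 39.0 kb from Il6st. That peak scored 4.94 and lay inside Stat5b, the gene of another STAT protein, with Stat5a between it and Stat3. For Socs3 (chromosome 11, 117966079 to 117970336) the nearest peak was 93.6 kb away inside Tha1 and the non-coding RNA gene Gm11725. It had a width of 267 bp and a score of 8.00, and 97 peaks scored higher.

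The partner chains Lifr (chromosome 15, 7090610 to 7197489) and Osmr (chromosome 15, 6813568 to 6874968) lie next to each other in the genome, in the same stretch of 574 kb without a listed peak. Gaps longer than this made up 51.4% of those between neighbouring listed peaks. The nearest peak to Lifr was 85.5 kb away inside Egflam (score 4.25), and that to Osmr 104.6 kb away inside Rictor (score 4.23). Both were near the lower limit of the list. The numbers of the peaks bounding that stretch leave 5 calls unlisted in it, and the corresponding figures are 17 in 618 kb around Stat3 and 6 in 276 kb around Socs3. Whether any of these lay within 50 kb of the genes is unknown, so lacking a peak means here only that the deposited list holds none.

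**Figure D3:**
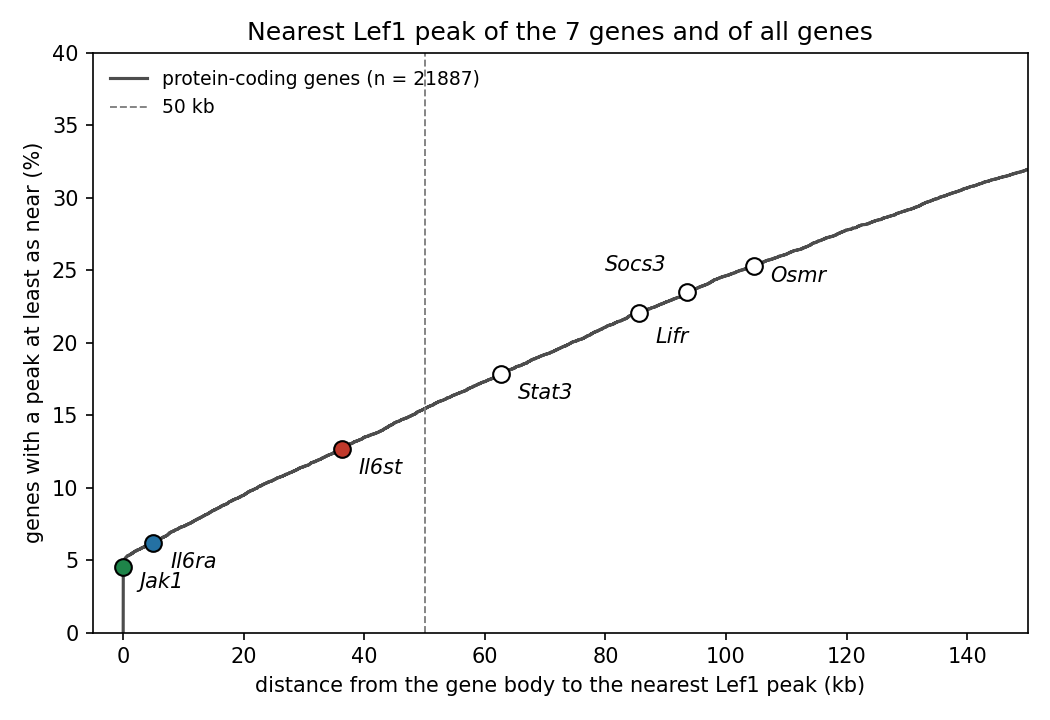
Distance from the gene body to the nearest Lef1 peak (x axis, kb) against the share of protein-coding genes with a peak at least as near (y axis, %). The line is all 21887 protein-coding genes, circles are the 7 genes (filled where a peak lies within 50 kb), and the dashed line marks 50 kb. Jak1 (0 kb), Il6ra (4.99 kb) and Il6st (36.3 kb) lie left of it and the other 4, from Stat3 (62.6 kb) to Osmr (104.6 kb), right of it.

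Over the 7 genes the median distance to the nearest peak was 62.6 kb, against 317 kb over all protein-coding genes. The genes were chosen with the peaks known and the medians are not matched for body length, so nothing is read from this difference. A peak at least as near as that of Il6ra was found for 6.21% of genes, as near as that of Il6st for 12.7%, and as near as that of Osmr, the farthest, for 25.3%. Jak1 has its nearest peak inside the body, as do 4.51% of genes.

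The rest of the pathway was covered by 64 further genes in 7 groups, all found in the gene table. Of these, 20 (31.2%) had a peak within 50 kb, against 15.5% of all protein-coding genes. The nearest protein-coding gene to a peak within 50 kb was one of them for 9 genes (14.1%), against 6.76%. The 20 genes rested on 26 separate peaks, of which 1 was shared by 2 of the genes. The median distance to the nearest peak was 95.9 kb. These groups too were drawn up with results of these data known.

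Upstream in the pathway, 0 of 9 cytokine genes of the IL-6 family and 0 of 8 other receptor chain genes had a peak within 50 kb, where 15.5% of all protein-coding genes had one, so that a count of 0 in groups this small says little. Within 100 kb 3 of the 9 and 3 of the 8 had a peak, against 24.6% of all protein-coding genes. The cytokine genes were Il6, Il11, Lif, Osm, Cntf, Clcf1, Ctf1, Il27 and Ebi3. The receptor chain genes without one were Il11ra1, Cntfr, Il27ra, Il31ra, Il12rb1, Il12rb2, Lepr and Csf3r. Among the receptor chains examined, those with a peak were thus Il6st and Il6ra.

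Of the other 3 Janus kinase genes 2 had a peak within 50 kb, and of 5 other STAT genes 3 had one, against the same 15.5%. Jak2 had a peak inside its body (chromosome 19, 29253953 to 29254007, score 5.12), and Jak3, which serves the common gamma chain receptors, had one 41.9 kb away (4.23) that lay inside Unc13a. Tyk2 had none. Stat4, which carries the signal of IL-12, had a peak inside its body (score 4.37) and another 6.65 kb away (score 4.99). The second of these lay nearer to another protein-coding gene. Stat5b and Stat5a shared the peak at 100824089 to 100824176 on chromosome 11 (score 4.94), which is also the one nearest to Stat3. Stat2 and Stat6 had none.

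Of 7 further genes of SOCS proteins, the feedback inhibitors of these receptors, Socs7 (46.4 kb, score 4.40) and Cish (35.7 kb, score 4.35) had a peak in their window, again against 15.5% of all genes. Both peaks lay inside another gene, Mrpl45 and Hemk1. Socs1, Socs2, Socs4, Socs5 and Socs6 had none. No SOCS gene, Socs3 included, was therefore the nearest protein-coding gene to a Lef1 peak within 50 kb of it. Peaks farther out were not assigned to a gene.

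Adaptors, phosphatases and other regulators had a peak at 10 of 15 genes, but 4 of 15 when only the nearest gene was counted, against 15.5% and 6.76% of all protein-coding genes. Those 4 were Grb2, an adaptor to the MAP kinase pathway, with a peak in its body (chromosome 11, 115699147 to 115699252, score 5.41), Ptpn2, a phosphatase that acts on Jak1 and STAT proteins (scores 4.25 inside and 4.11 at 0.956 kb), Pias2 (4.40 inside) and Adam10 (4.25 inside). Pias2 also had a peak 17.7 kb away (4.99) and Adam10, a protease that can release the IL-6 receptor from the cell surface, one 21.4 kb away (6.70). Both of these lay inside another gene, Katnal2 and Mindy2. Ptpn6, which encodes the phosphatase SHP-1, had peaks 2.45 kb (5.53) and 11.8 kb (6.84) away, nearer to Grcc10 and Atn1. Adam17, another such protease, had peaks 43.8 kb (6.91) and 44.3 kb (4.25) away that lay 0.016 and 0.479 kb from Ywhaq. Sos1, Pias1, Pias4 and Erbin had peaks of 4.11 to 4.31, each nearer to another gene. Ptpn11, Ptpn1, Gab1, Shc1 and Pias3 had none.

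Of 17 genes that respond to IL-6 and STAT3 in CD4 T cells, 3 (17.6%) had a peak, against 15.5% of all protein-coding genes. Il21, the cytokine gene of follicular helper cells, had one 17.3 kb away (chromosome 3, 37205261 to 37205468, score 6.84). Prdm1, which encodes the repressor Blimp-1, had 2 in its body (4.99 and 4.14). Ccnd1 had one 21.9 kb away (4.34), nearer to LTO1. The Th17 genes Rora, Il17a, Il17f and Il23r, the follicular helper gene Bcl6, and Maf, Batf, Il10, Irf4, Bcl3, Pim1, Myc, Bcl2 and Mcl1 had none.

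**Figure D4:**
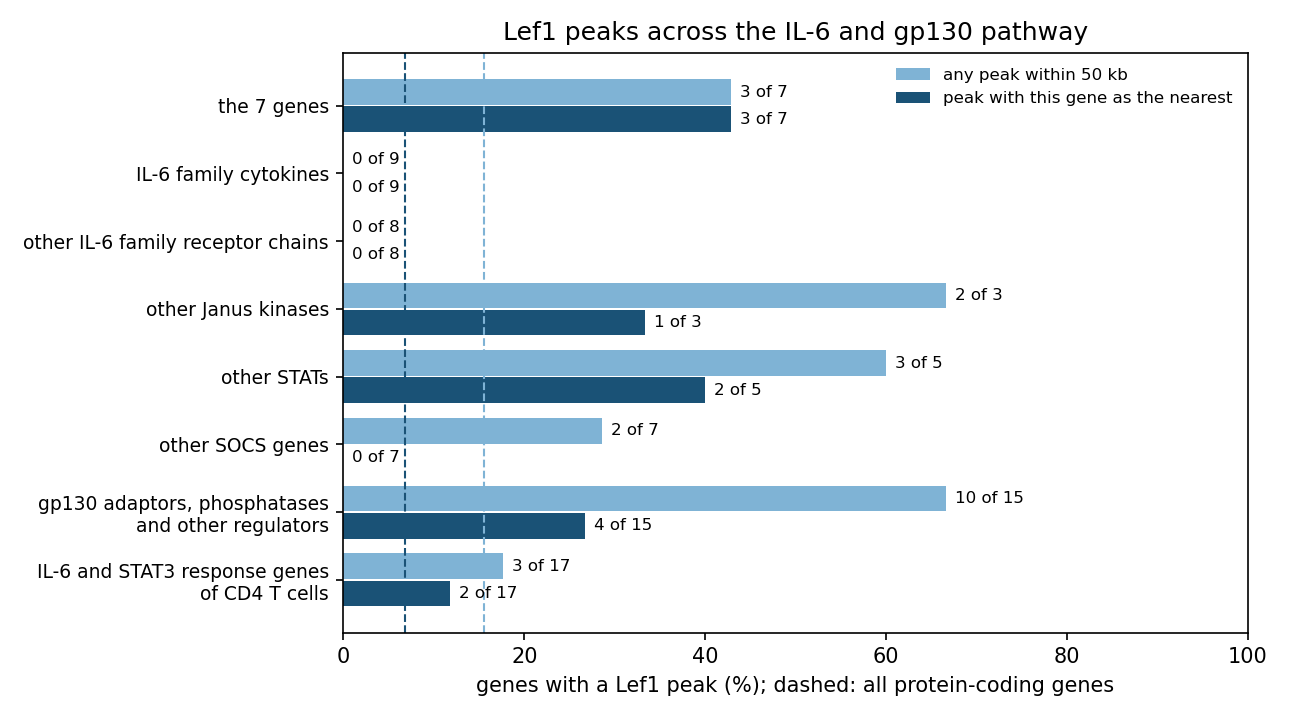
Share of genes with a Lef1 peak (x axis, %) in the 7 genes and in 7 groups of the IL-6 and gp130 pathway. Pale bars count any peak inside or within 50 kb of the gene. Dark bars count those of these peaks to which the gene is the nearest protein-coding gene. Labels give the numbers of genes, and dashed lines give the same shares for all protein-coding genes (15.5% and 6.76%). The 7 genes have 3 of 7 by both counts, while the SOCS genes go from 2 of 7 to 0 of 7 and the regulators from 10 of 15 to 4 of 15.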

How the data were processed

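The authors deposited 1 list of Lef1 peaks with the −log10 of a p-value per peak, per the file headers. Tools listed by the submitters' processing notes are Bowtie2 2.3.4.1, MACS2 2.1.1 and FastQC, with mm10 as the build. Their parameters are not stated there. The Lef1-deficient library served as control, per the labels. There was 1 library per group, so a score says nothing of reproducibility, and read depth is unknown. Libraries were amplified over 18 to 21 cycles of PCR, per the labels' protocols.

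Starts were raised by 1 to make them 1-based, assuming the BED convention. Bodies of 21887 protein-coding genes came from a RefSeq table of GRCm38.p6, and starts and strands from its promoter windows. Distances run from the nearest base of a peak to the gene body. Distances from a gene's start run from the peak centre. Assignment was tested on simulated peaks at known places. All 7 genes and every peak at them are named, as is every gene of the further groups with a peak. A few genes planned for these groups and for the marker lists are not reported here and enter no count of them. The genes, groups and rules were chosen with earlier results of these data known, and no test was made. Alternatives were windows of 10 and 100 kb, bodies alone, the nearest gene alone, peak centres, peaks above the median score or of at least 8, joined neighbours and other words. Python 3.11.15 and pandas 2.3.3 were used.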

Additional observations from a re-analysis of the deposited data

How the results depend on the processing

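With a window of 100 kb, 6 members had a peak in place of 3, with gene bodies alone 1, and with peaks scoring at least 8 also 1. The 7 peaks became 3 within 10 kb and 2 inside bodies, and without Il6st, an alternative chosen after seeing the data, 3. Of the further 64 genes, 10 had a peak within 10 kb, 33 within 100 kb, 9 by the nearest gene alone and 11 with peaks above the median score, in place of 20. The longer words CCTTTGA and CCTTTGT were found at 0 members in place of 2. Of all windows 8.97% held a longer word, against 27.6% for CTTTGA or CTTTGT. The cause was not tested beyond the narrower or wider windows and fewer peaks that these settings impose. The other 16 repeats of such counts and shares lay within 1.5 times the main value, those over genes with other body lengths or on autosomes (16.3 to 19%, chosen after seeing the data) included. Highest and summed scores per gene did not move in 10 repeats, and within 10 kb Il6st had no peak and so no value. No paired analysis was possible because the study has a single library of each genotype, and for the same reason no replicate could be left out. Depth is unknown, so that a missing peak cannot be told from too few reads.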
